A study of Rattus norvegicus with 12 samples.

Results

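Mammary glands of ovariectomized Lewis rats given 17β-estradiol and 3-methylcholanthrene together (E2 + 3-MC) were compared with those of rats given vehicle, over every probe set of a rat gene array. The 3 arrays whose titles name E2 + 3-MC and the 3 whose titles name DMSO were used for this comparison, 6 of the 12 arrays in all, and the other 6 arrays, from rats given E2 or 3-MC alone, entered the same model, where they add to the estimate of the spread, and are compared with the combined treatment further on. All rats were female, were ovariectomized at about 10 weeks of age, were first treated 14 days later and received 3 subcutaneous treatments. E2 was given at 4 μg/kg/day, 3-MC at 15 mg/kg/day, and the vehicle was a mixture of DMSO and castor oil. Glands were taken 24 hr after the last treatment, whereas the sample labels give a treatment time of 48 h. Each array held RNA of 1 rat, from whole glands that contain epithelium, fat, connective tissue, vessels and blood cells. In such RNA, fewer cells of a type and less RNA per cell cannot be told apart.

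Estradiol acts through estrogen receptors, which bind DNA as dimers and switch on genes such as the progesterone receptor, and in the mammary gland it drives ductal growth, in part through the epidermal growth factor ligand amphiregulin. 3-MC is a polycyclic aromatic hydrocarbon that binds the aryl hydrocarbon receptor (AHR), a transcription factor that pairs with ARNT and induces enzymes of xenobiotic metabolism such as CYP1A1 and CYP1B1. Milk protein genes are the classical products of the secretory epithelium and respond to prolactin through STAT5. The comparison asks what the gland expressed when estrogen and an AHR ligand were present at the same time.

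The 29214 probe sets have linear signal intensities, and log2 values were taken after adding 16. The limma test covered 23371 probe sets, those with a mean above the 20th percentile, and those that differed 1.5-fold or more and had an adjusted p (Benjamini-Hochberg) below 0.05 are said to have passed. Fold changes include the added 16, so at low signals they are smaller than the ratio of the printed intensities. The median intensity of the 6 arrays lay between 85.65 and 105, and the log2 values of any pair of them correlated at 0.934 to 0.981 across probe sets, which are not independent replicates. Precision is limited by the number of arrays.

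The 6 arrays differed in their levels of muscle and myeloid genes. The 16 skeletal muscle genes tested had summed intensities of 33150, 46780 and 772 in vehicle rats 1, 2 and 3, and of 2057, 2839 and 1008 in the E2 + 3-MC rats. Vehicle rat 3 thus lay below all 3 treated rats, and the 2 groups overlapped. Summed over 18 macrophage and other myeloid genes, intensities were 7601, 6213 and 13570 with vehicle and 9915, 16130 and 16540 with E2 + 3-MC, with vehicle rat 3 again apart from the other vehicle rats. The mammary gland was recognizable in every array by its defining markers. Krt18, a luminal keratin, was in the brightest of its probe sets at 841 to 1112 with vehicle and 1109 to 1521 with E2 + 3-MC, and Adipoq, which encodes the fat cell hormone adiponectin, was at 3549 to 4135 and 3230 to 4347.

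With E2 + 3-MC, 36 probe sets were higher (0.154% of those tested) and 2 were lower (0.00856%) than with vehicle. None of these 38 (0.163%) overlapped between the 2 groups of rats, against 10.5% of all probe sets that were higher and 3.68% that were lower without overlap. The 38 were picked by the test on these same arrays, which nearly fixes this outcome, so it is not further support. Among named genes the largest rises were those of Csn2 (beta-casein), Pgr (progesterone receptor), Areg (amphiregulin) and Csn1s2a (another casein), and the 2 that fell were Retn (resistin) and Abca8a (a membrane transporter). Of the 36, 33 were at least 2-fold, 22 at least 3-fold and 13 at least 4-fold higher, with a median of 3.66-fold. These counts and this median include 11 probe sets with several gene symbols that, as described below, are close to 1 measurement. The balance between higher and lower depended on scaling, since 94.7% of the calls were higher on the deposited scale, 82.7% after quantile normalization (43 higher, 9 lower) and 85% after each array was centred on its median (34 higher, 6 lower). By limma, 1634 probe sets were higher (6.99% of those tested) and 638 lower (2.73%) at an unadjusted p below 0.05. The methods' t-test with Benjamini-Hochberg correction passed 0 (1642 at an unadjusted p below 0.05). With only the vehicle and E2 + 3-MC arrays fitted, 33 were higher and 3 lower, 31 of the 38 calls were shared, and Tead2, Stc2, Abca8a, Csn1s2a, Lrp2 and Mup5 did not pass (adjusted p = 0.056 to 0.163 by limma). Over all tested probe sets the median log2 difference was 0.07, and it was -0.02 with centred arrays and -0.0038 after quantile normalization. Without vehicle rat 3, 48 probe sets were higher and 33 lower, and of the 33 the ones with 1 gene symbol included the muscle genes Tnnt1 (log2 difference -2.28), Ryr1 (-2.12) and Des (-2.36).

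**Figure D1:**
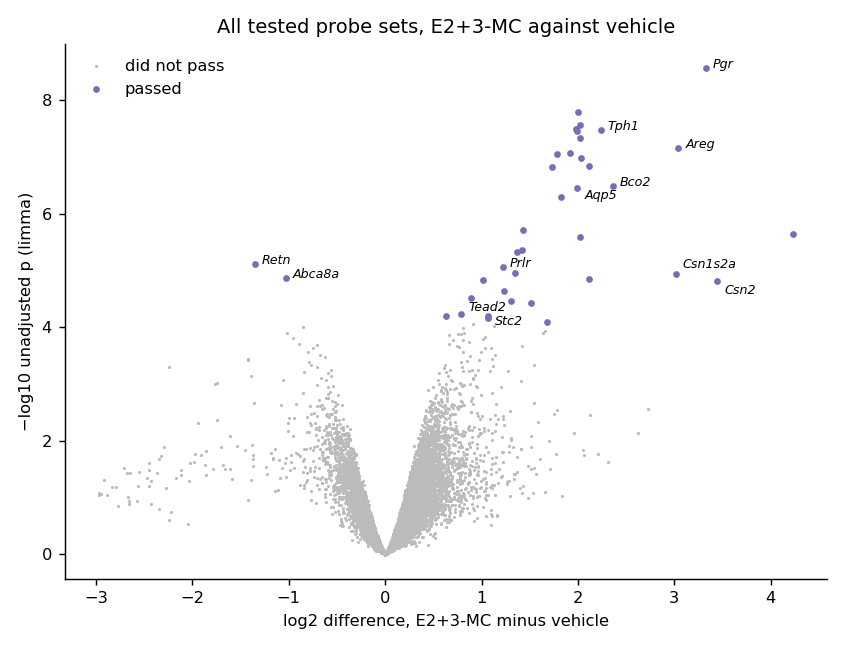
Difference between the means of 3 E2 + 3-MC and 3 vehicle rats on the log2(intensity + 16) scale (x axis) against −log10 of the unadjusted limma p (y axis) for each of the 23371 tested probe sets. The 38 that passed are purple, 36 of them on the right and 2, Retn and Abca8a, on the left.

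Of the 38 probe sets, 21 carry 1 gene symbol (19 higher, 2 lower), 11 carry several and 6 carry none. For 18 of the 21 genes the RefSeq promoter table (rat build GRCr8) held the sequence from 250 bases before to 50 after the start. In each window 3 motifs were searched on both strands. GCGTG, the core of the element bound by the AHR with ARNT, was in 6 of 18 promoters (33.3%) and in 29.7% of all 33469 promoters. TTCNNNGAA, the element bound by STAT5, was in 2 of 18 (11.1%) and in 8.87% of all. The full estrogen response element, GGTCA and TGACC with 3 bases between them, was in 0 of 18 and in 9 of all promoters (0.0269%), and a window of this length says nothing of more distant elements. The 2 promoters with TTCNNNGAA were those of the 2 casein genes that rose, and their 150 bases before the start are shown for that reason, at chr14:20601674-20601823 on the plus strand for Csn2 and chr14:20574472-20574621 on the minus strand for Csn1s2a, with the motif in capitals. The promoter of Areg, at chr14:17265642-17265791 on the minus strand, is shown with its single GCGTG in capitals.
Csn2: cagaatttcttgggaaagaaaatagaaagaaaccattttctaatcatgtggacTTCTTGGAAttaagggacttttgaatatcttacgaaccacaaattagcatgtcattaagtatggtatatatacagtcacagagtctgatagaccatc
Csn1s2a: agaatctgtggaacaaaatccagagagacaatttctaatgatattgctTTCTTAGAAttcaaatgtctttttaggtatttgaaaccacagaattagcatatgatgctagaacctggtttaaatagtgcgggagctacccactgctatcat
Areg: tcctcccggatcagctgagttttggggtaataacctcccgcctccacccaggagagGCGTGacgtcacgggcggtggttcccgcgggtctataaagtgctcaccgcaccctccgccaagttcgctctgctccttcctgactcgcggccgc
The motif begins at position -97 from the start in Csn2 and at -102 in Csn1s2a, and GCGTG begins at -94 in Areg. None of the shown matches overlaps a match to another of the 3 motifs.

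Among receptors and ligands, 4 genes of the estrogen and progesterone response rose. Pgr, which encodes the progesterone receptor, was at 38.3, 45.6 and 31.1 in the vehicle rats and at 619, 411 and 575 in the E2 + 3-MC rats. This was 10.1-fold (log2 difference 3.33 ± 0.24 SE, adjusted p = 6.39e-05 by limma, 3 rats per group), the smallest adjusted p of the comparison, and it passed whichever rat was left out. Areg, the EGF receptor ligand amphiregulin, was at 44.1, 20.1 and 50.4 against 356, 288 and 697, a difference of 8.24-fold (adjusted p = 2e-04 by limma). Prlr, the prolactin receptor, was at 220, 193 and 156 against 527, 365 and 500, which was 2.33-fold (adjusted p = 0.00892 by limma) and did not pass without E2 + 3-MC rat 1 or rat 3. Stc2, which encodes the secreted glycoprotein stanniocalcin, was 2.1-fold higher (adjusted p = 0.0413 by limma) and did not pass in 5 of the 6 fits that left out 1 rat.

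These 4 were the members that passed of 20 estrogen and progesterone target genes tested, of which 8 were higher and 1 lower at an unadjusted p below 0.05 (6.99% and 2.73% of all tested probe sets). The list's median log2 difference was 0.20. Without E2 + 3-MC rat 1 or rat 3, 2 of the 20 passed. Foxa1, a pioneer factor for estrogen receptor binding, was at 55.9, 76 and 70.7 against 164, 131 and 130, without overlap, and did not pass (adjusted p = 0.0519 by limma). Several well known estrogen targets gave small differences. Ccnd1, which encodes cyclin D1, had a log2 difference of 0.17, Myc of 0.20 and Tff1, an estrogen-induced gene of breast cancer cells, of 0.01, each with overlapping groups. Igf1, a growth factor made largely by stroma in this gland, had a log2 difference of -0.47 with no overlap (adjusted p = 0.393 by limma).

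The receptors themselves, apart from Pgr and Prlr, stayed below the threshold. Of 17 further steroid, growth factor and AHR receptors and partners tested, 0 passed in limma. At an unadjusted p below 0.05, 2 were higher and 0 lower (6.99% and 2.73% of all tested probe sets). The methods' t-test gave 0 higher and 1 lower at that level and 0 after correction. Esr1, the estrogen receptor, was in the brighter of its probe sets at 447, 323 and 250 with vehicle and 287, 201 and 273 with E2 + 3-MC (log2 difference -0.38, adjusted p = 0.714 by limma). Ahr was at 264, 246 and 336 against 258, 217 and 241 (log2 difference -0.22), and its partner Arnt at 428, 425 and 450 against 432, 422 and 399 (-0.05). The 2 with an unadjusted p below 0.05 were Erbb3 (log2 difference 0.46) and Erbb4 (0.41), receptors of neuregulins. Egfr (-0.21), Erbb2 (0.15), Igf1r (0.10), Insr (-0.03), Ghr (-0.23), Nr3c1 (-0.14), Gper1 (-0.04), Arnt2 (0.29), Ncoa1 (-0.10), Ncoa2 (-0.10) and Ncoa3 (0.11) made up the rest of the list, with Ahrr below. Esr2, the second estrogen receptor gene, was below the filter on low values at 23.7 to 26.8 with vehicle and 27.1 to 28.9 with E2 + 3-MC.

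Of the milk protein genes, 2 caseins rose, and both varied widely between treated rats. Csn2, which encodes beta-casein, was at 85.8, 103 and 80.8 in vehicle rats and at 1652, 502 and 1744 in E2 + 3-MC rats, 10.9-fold higher (log2 difference 3.45 ± 0.53 SE, adjusted p = 0.0125 by limma). Csn1s2a, another casein gene, was at 59.2, 69.8 and 69.2 against 883, 223 and 1330, or 8.08-fold (adjusted p = 0.0108 by limma). Both were lowest in E2 + 3-MC rat 2, and both failed to pass when vehicle rat 1, E2 + 3-MC rat 1 or E2 + 3-MC rat 3 was left out. Wap, whey acidic protein, was at 415, 351 and 269 with vehicle and 1181, 557 and 1621 with E2 + 3-MC, again lowest in treated rat 2. It did not pass (log2 difference 1.55, adjusted p = 0.134 by limma), although it did without E2 + 3-MC rat 2 (adjusted p = 0.011 by limma).

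Of 23 milk protein and secretory genes tested, the 2 caseins passed. At an unadjusted p below 0.05, 12 were higher and 0 lower (6.99% and 2.73% of all tested probe sets). Of the 23, 11 were higher without overlap between groups (10.5% of all tested probe sets). The list's median log2 difference was 0.42. With E2 + 3-MC rat 2 left out 5 members passed, and with vehicle rat 1, E2 + 3-MC rat 1 or rat 3 left out 0 passed. Members that were abundant in the vehicle rats had small differences. Csn1s1 was at 4774 to 4829 with vehicle and 5297 to 6544 with E2 + 3-MC (log2 difference 0.32), Csn3 at 3293 to 3331 and 3788 to 4600 (0.36) and Lalba, the lactose synthase subunit alpha-lactalbumin, at 3465 to 3975 and 4353 to 5743 (0.46), and none of these 3 passed.

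The lists of serotonin, carotenoid and retinoid genes and of water and ion transport genes had 4 members that rose. Tph1, the first enzyme of serotonin synthesis, was at 62.3, 48.5 and 49.9 with vehicle and 286, 243 and 434 with E2 + 3-MC, 4.73-fold higher (adjusted p = 0.000134 by limma). Bco2, which cleaves carotenoids, was at 38.9, 46.8 and 47.2 against 392, 222 and 288, 5.14-fold higher (adjusted p = 0.000539 by limma). Aqp5, a water channel of secretory epithelia, was at 207, 363 and 275 against 1067, 944 and 1482, or 3.99-fold (adjusted p = 0.000546 by limma). These 3 genes and Clca1, a secreted regulator of chloride conductance, passed without any 1 of the 6 rats. Clca1 was at 903, 837 and 1030 against 2463, 1980 and 3224 (2.69-fold). The other members of both lists did not pass, so that 2 of 18 and 2 of 17 were higher (0.154% of all tested probe sets). At an unadjusted p below 0.05 in limma, the serotonin, carotenoid and retinoid list had 4 higher and 4 lower. The water and ion transport list had 6 higher and 1 lower (6.99% and 2.73% of all tested probe sets). Their median log2 differences were 0.02 and 0.26. Crabp1, a retinoic acid binding protein, was lower without overlap at 815, 868 and 891 against 485, 556 and 518 and did not pass (adjusted p = 0.0818 by limma).

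Cyp2e1, a cytochrome P450 that oxidizes ethanol and small solvents, was the 1 of 15 estrogen and xenobiotic metabolism genes that passed (0.154% of all tested probe sets were higher). It was at 70.8, 50.2 and 29 with vehicle and 272, 204 and 317 with E2 + 3-MC, a 4.34-fold difference (adjusted p = 0.0124 by limma) that did not pass without E2 + 3-MC rat 1 or rat 3. At an unadjusted p below 0.05 in limma, 2 of the 15 were higher and 1 lower (6.99% and 2.73% of all tested probe sets). The list's median log2 difference was 0.03. Aadat, an aminotransferase of lysine and kynurenine breakdown, was 2.67-fold higher and passed without any 1 rat. The remaining named genes were between 1.73-fold and 4.33-fold higher. They were Dlgap5l2 at 5.86 to 11.4 with vehicle and 77.8 to 103 with E2 + 3-MC, the endocytic receptor Lrp2 (2.47-fold), the granzyme inhibitor Serpinb9 (2.35-fold), Plet1 (2.09-fold), the immune inhibitory ligand Cd200 (2.03-fold) and the transcription factor Tead2 (1.73-fold). Dlgap5l2, Lrp2 and Mup5 were among 6 of the 38 probe sets whose vehicle mean lay below the level of the filter, an intensity of 35.5, so their folds are against signal near background. Lrp2, Plet1 and Tead2 each failed in 5 of the 6 fits without 1 rat, and Serpinb9 and Cd200 in 3.

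Mup5, of a lipocalin family whose members carry pheromones and other lipids, was at 14.9, 31.3 and 45.8 with vehicle and 98.9, 98.4 and 143 with E2 + 3-MC (2.85-fold, adjusted p = 0.0263 by limma). Its family holds near-identical copies, so the gene of origin is uncertain, and it failed in 5 of the 6 fits without 1 rat. The 11 probe sets with several symbols were at 16.3 to 171 with vehicle and 124 to 613 with E2 + 3-MC, with log2 differences of 1.74 to 2.03, and passed whichever rat was left out. Their log2 values correlated at 0.968 to 0.999 over the 12 arrays, so they are close to 1 measurement and not 11. The largest rise of all belonged to a probe set with no symbol, 10769601, at 33.6, 54.4 and 44 against 621, 589 and 3570 (log2 difference 4.23 ± 0.54 SE, adjusted p = 0.00295 by limma). E2 + 3-MC rat 3 stood far above the other treated rats, and the groups did not overlap.

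**Figure D2:**
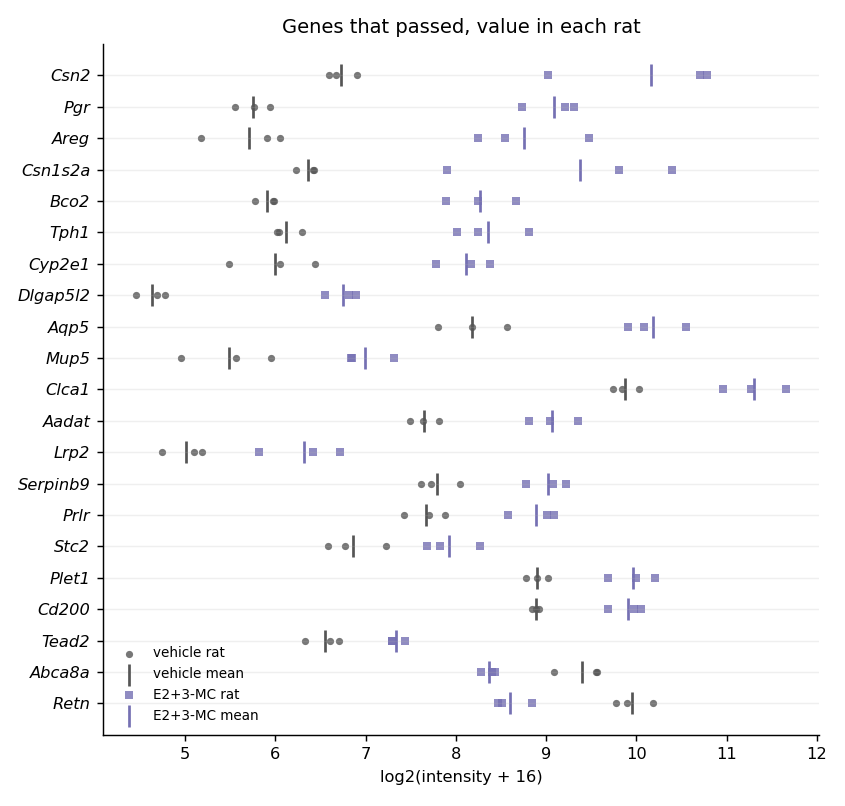
Log2(intensity + 16) of the 21 genes that passed (rows, ordered by log2 difference) in each vehicle rat (grey circles) and each E2 + 3-MC rat (purple squares), with group means as vertical bars, 3 rats per group. The groups do not overlap in any row, and Csn2 and Csn1s2a have 1 treated rat, rat 2, below the other two.

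Of the 2 genes that fell, Retn, which encodes the fat cell hormone resistin in rodents, was at 1150, 934 and 862 with vehicle and 347, 338 and 443 with E2 + 3-MC, so that it fell by 1.35 on the log2 scale (2.54-fold, adjusted p = 0.00829 by limma). It did not pass without vehicle rat 1 or E2 + 3-MC rat 1. Abca8a, a membrane transporter of the ABC family, was at 741, 734 and 528 against 329, 294 and 321 and fell by 1.03 (2.05-fold, adjusted p = 0.0119 by limma). It failed in 5 of the 6 fits without 1 rat. Retn was the 1 member of 17 fat cell genes that passed. At an unadjusted p below 0.05, 0 were higher and 5 lower (6.99% and 2.73% of all tested probe sets). The list's median log2 difference was -0.18, but -0.39 without E2 + 3-MC rat 3 and -0.07 without rat 2, and its summed intensities were 30330 to 35620 with vehicle and 25570 to 35580 with E2 + 3-MC.

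Genes of fatty acid and triglyceride synthesis were mostly lower without passing. Of 21 tested, 0 passed in limma. At an unadjusted p below 0.05, 0 were higher and 11 lower (6.99% and 2.73% of all tested probe sets). In the methods' t-test 2 were lower at that level (0 after correction). The median log2 difference was -0.44, but -0.68 without vehicle rat 2 and -0.28 without vehicle rat 3. Acss2, which makes acetyl-CoA from acetate, was at 471, 310 and 524 with vehicle and 238, 228 and 248 with E2 + 3-MC (log2 difference -0.80, adjusted p = 0.0948 by limma). Pnpla3, a lipid droplet protein regulated by feeding, was at 562, 268 and 813 against 155, 189 and 213 (-1.36, adjusted p = 0.294 by limma), and the elongase Elovl6 at 339, 148 and 620 against 158, 177 and 159 (-0.88). Vehicle rat 2 was the lowest of its group for these 3 genes, and without it 5 of the 21 passed, all lower.

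Mitotic genes lay above vehicle in most cases but did not pass. Of 36 tested, 0 passed in limma. At an unadjusted p below 0.05, 27 were higher and 0 lower (6.99% and 2.73% of all tested probe sets). In the methods' t-test 15 were higher at that level (0 after correction). Of the 36, 23 were higher without overlap (10.5% of all tested probe sets). The list's median log2 difference was 0.64. Top2a, the topoisomerase that untangles chromosomes, was at 65.3, 14.4 and 125 with vehicle and 127, 171 and 182 with E2 + 3-MC (log2 difference 1.31, adjusted p = 0.396 by limma). Nusap1, a spindle protein, was at 47.3, 24 and 72.6 against 109, 115 and 131 (1.14, adjusted p = 0.105 by limma), and it was the 1 mitotic gene that passed without vehicle rat 3. The vehicle rats differed among themselves by more than the treated rats did, with summed intensities of the 36 genes of 2072, 1378 and 2660 against 2885, 3454 and 3771. Ccnb1, Ccnb2, Kif11 and Kif2c, which code for mitotic cyclins and kinesins, had log2 differences of 0.98, 1.02, 0.95 and 0.49.

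Most AHR target genes had small differences, and a few were higher in 2 of the 3 treated rats. Of 14 tested, limma passed 0, and both limma and the methods' t-test gave 0 at an unadjusted p below 0.05 in either direction, and the median log2 difference was 0.07 (-0.03 with centred arrays, -0.00075 after quantile normalization and -0.00074 without E2 + 3-MC rat 3). Cyp1b1, a P450 that hydroxylates estradiol and hydrocarbons, was at 161, 127 and 211 with vehicle and 154, 560 and 407 with E2 + 3-MC (log2 difference 0.95, adjusted p = 0.576 by limma). Ahrr, the repressor of the AHR, was at 32.2, 34.3 and 80.3 against 51, 168 and 98.4 (0.86), and Nqo1, a quinone reductase, at 97.1, 62.3 and 200 against 87.1, 346 and 215 (0.73). In all 3 genes E2 + 3-MC rat 1 lay within the range of the vehicle rats and rats 2 and 3 above it. Hmox1, heme oxygenase, was at 382, 144 and 799 against 578, 1444 and 1127 (1.42). Cyp1a1, the textbook AHR target, was below the filter on low values at 24, 11 and 10.2 with vehicle and 18, 112 and 30.6 with E2 + 3-MC, again with rat 1 among the vehicle values. The rest of the list had log2 differences from -0.33 to 0.25, namely Slc7a5 (0.25), Cyp1a2 (0.14), Nfe2l2 (0.09), Scin (0.05), Aldh3a1 (0.02), Gsta3 (-0.10), Ahr (-0.22), Fmo1 (-0.22), Selenbp1 (-0.29) and Lefty1 (-0.33). The study named Lefty1 from these same arrays as changed by 3-MC only, so as a list member it is not independent of these data.

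Interferon-induced genes and chemokines did not pass. Of 21 type I interferon response genes, 0 passed in limma and 7 were higher at an unadjusted p below 0.05 (0 in the methods' t-test), with a median log2 difference of 0.63. Mx1, an antiviral GTPase, was at 64.2, 30.9 and 155 with vehicle and 129, 608 and 691 with E2 + 3-MC (2.21, adjusted p = 0.433 by limma). Isg15, a ubiquitin-like modifier, was at 238, 131 and 359 against 348, 839 and 1257 (1.61). For both genes E2 + 3-MC rat 1 was below vehicle rat 3. Of 27 chemokines and cytokines, 0 passed in limma, 9 were higher and 2 lower at an unadjusted p below 0.05 (2 and 1 in the methods' t-test), and the median was 0.50. For both lists the share over all tested probe sets at that level in limma was 6.99% higher and 2.73% lower. Cxcl10, a chemokine for T cells, was at 122, 67.2 and 168 against 166, 1182 and 2238, and Ccl2, which draws monocytes, at 631, 317 and 2747 against 674, 2466 and 3021. Il18, an interleukin made by epithelium and macrophages, was high in all 3 treated rats, at 410, 373 and 446 against 114, 88.8 and 161 (log2 difference 1.66, adjusted p = 0.0635 by limma).

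Leukocyte markers did not pass either. Of 18 myeloid genes 0 passed in limma and 5 were higher at an unadjusted p below 0.05 (3 in the methods' t-test), with a median log2 difference of 0.45 that was 0.77 without vehicle rat 3 and 0.76 without E2 + 3-MC rat 1. Of 14 lymphocyte genes 0 passed and 6 were higher (2 in the methods' t-test), and their median was 0.62. Over all tested probe sets, 6.99% were higher at an unadjusted p below 0.05 in limma. Cd3e, a T cell receptor subunit, was at 56.5, 46.3 and 75.7 with vehicle and 102, 243 and 121 with E2 + 3-MC. The summed intensity of the 14 lymphocyte genes was 1510, 1199 and 2195 against 1696, 3280 and 2593. The part of leukocyte content in the levels of the interferon, chemokine and AHR target genes was not tested. None of the defining markers of either list was listed at 0, but the lymphocyte genes Ms4a1 and Klrb1 were below the filter on low values and were not tested. Ms4a1 was at 23.6, 12.9 and 20.2 with vehicle and 25.6, 25.9 and 20.9 with E2 + 3-MC. Klrb1 was at 34.5, 32.5 and 32.9 against 39.5, 28.9 and 39.3, and both genes overlapped between the groups.

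**Figure D3:**
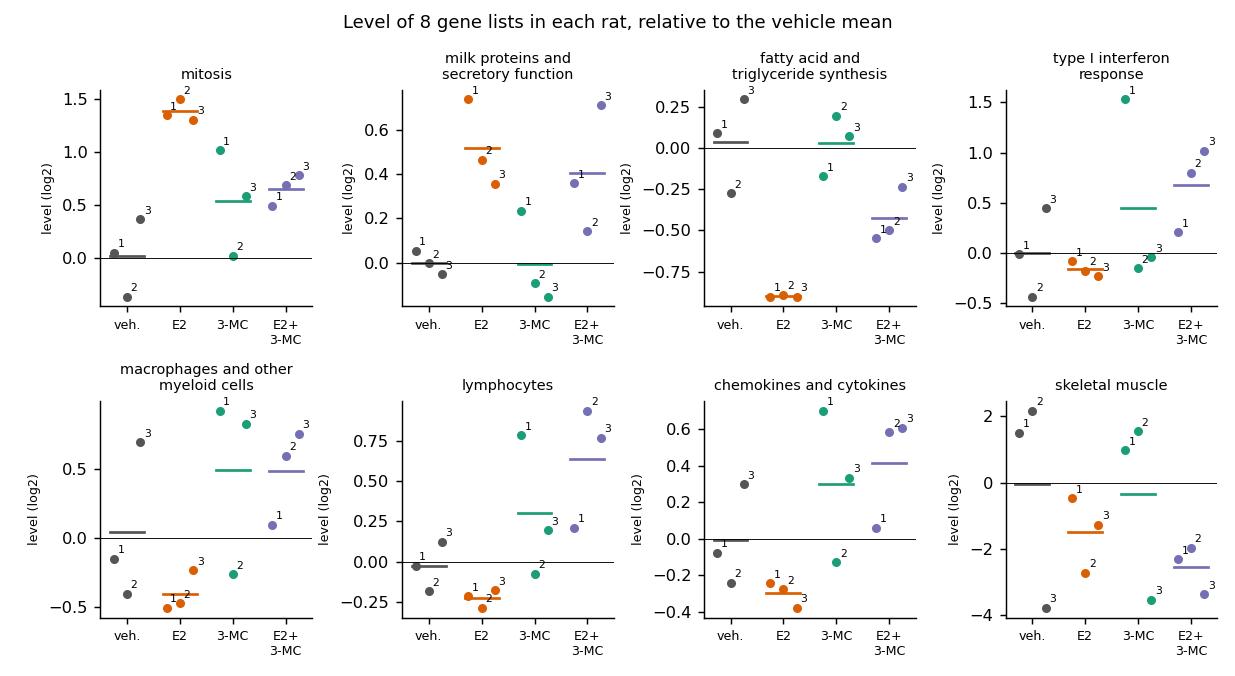
Level of 8 gene lists in each of the 12 rats, as the median over list members of the log2 difference from the vehicle mean (y axis, scales differ between panels), with rat numbers beside the points and group means as bars. Mitotic genes of the E2 + 3-MC rats lie at 0.49 to 0.78, interferon genes at 0.21 to 1.02 with rat 1 lowest, and skeletal muscle genes of the vehicle rats at -3.79 to 2.17.

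Luminal epithelial markers did not pass. Of 24 tested, 0 passed in limma. At an unadjusted p below 0.05, 11 were higher and 1 lower (6.99% and 2.73% of all tested probe sets), against 6 and 1 in the methods' t-test. The list's median log2 difference was 0.29. Its summed intensities were 9789, 11110 and 9452 with vehicle and 13940, 11050 and 13760 with E2 + 3-MC. Treated rat 2, which had the lowest casein levels, thus also lay within the vehicle range here. Epcam, an epithelial adhesion molecule, was at 637 to 916 and 809 to 1135, and Aldh1a3, a retinaldehyde dehydrogenase, was lower without overlap at 81.4, 110 and 128 against 67.5, 71.9 and 51.2 (log2 difference -0.61, adjusted p = 0.323 by limma). The part of epithelial content in the genes that passed was not tested.

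Of 40 listed genes that the study names for its arrays or quantitative PCR, 35 were tested. Of these, 10 were higher and 1 was lower (0.154% and 0.00856% of all tested probe sets). At an unadjusted p below 0.05 in limma, 18 were higher and 11 lower (6.99% and 2.73% of all tested probe sets). The list leaves out others of the study's pathway analysis, such as the mitotic genes Bub1, Bub1b and Plk1, which did not pass. The listed genes were chosen by the study on these samples or for its E2 comparison, so they are not independent evidence of a direction. Besides those given above, Slc2a4, the insulin-regulated glucose transporter, was at 169, 199 and 209 with vehicle and 103, 112 and 128 with E2 + 3-MC (log2 difference -0.68, adjusted p = 0.106 by limma). Rbp4, Sfrp2, Mmp27, Rgs7 and Ccl11 were also lower without overlap and did not pass, with log2 differences of -0.65, -0.68, -0.94, -0.53 and -0.62. H1f5 (0.95), Acaca (-0.51), Me1 (-0.50), Pc (-0.31) and Pfkfb3 (0.12) overlapped between the groups.

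Against E2 alone, in the same 4-group fit, 0 probe sets passed in limma (1401 were higher and 648 lower at an unadjusted p below 0.05, together 8.77%, and the methods' t-test with correction passed 0). The smallest adjusted p was 0.101, for Nr1d1, a repressor of the circadian clock. The comparisons with vehicle share the vehicle arrays, so the values are given side by side. The 36 probe sets that were higher with E2 + 3-MC had a median log2 difference from vehicle of 1.87 with E2 + 3-MC, 2.23 with E2 and 0.30 with 3-MC, and the 2 that were lower had medians of -1.19, -1.32 and -0.15. The medians of the 36 weigh the 11 closely correlated probe sets with several symbols as if they were separate measurements. Tph1 was at 310, 313 and 315 with E2, and its difference between E2 + 3-MC and E2 was -0.01 (95% interval -0.43 to 0.42). For Cyp2e1 this difference was 0.00 (-0.69 to 0.69), for Aqp5 -0.08 (-0.55 to 0.38) and for Aadat 0.03 (-0.38 to 0.45).

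Other genes had intervals below 0 without passing the adjusted threshold. Clca1 was at 3784, 3895 and 3613 with E2, above all 3 E2 + 3-MC rats (difference -0.58, 95% interval -0.97 to -0.20, adjusted p = 0.434 by limma). Pgr was at 795, 838 and 722 with E2, also above all 3 (-0.56, -1.08 to -0.04, adjusted p = 0.552 by limma). Prlr (-0.51), Plet1 (-0.50), Stc2 (-0.44), Bco2 (-0.59) and Cd200 (-0.36) likewise had intervals below 0, with adjusted p of 0.48 to 0.552. The intervals of Csn2 (-1.66 to 0.61), Areg (-0.96 to 0.28), Csn1s2a (-1.81 to 0.12) and Serpinb9 (-0.81 to 0.03) reached above 0. The interaction of E2 and 3-MC, which asks whether the combined response differed from the sum of the log2 responses to each compound, passed for 0 probe sets in limma (371 higher and 661 lower at an unadjusted p below 0.05, together 4.42%, smallest adjusted p 0.446).

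**Figure D4:**
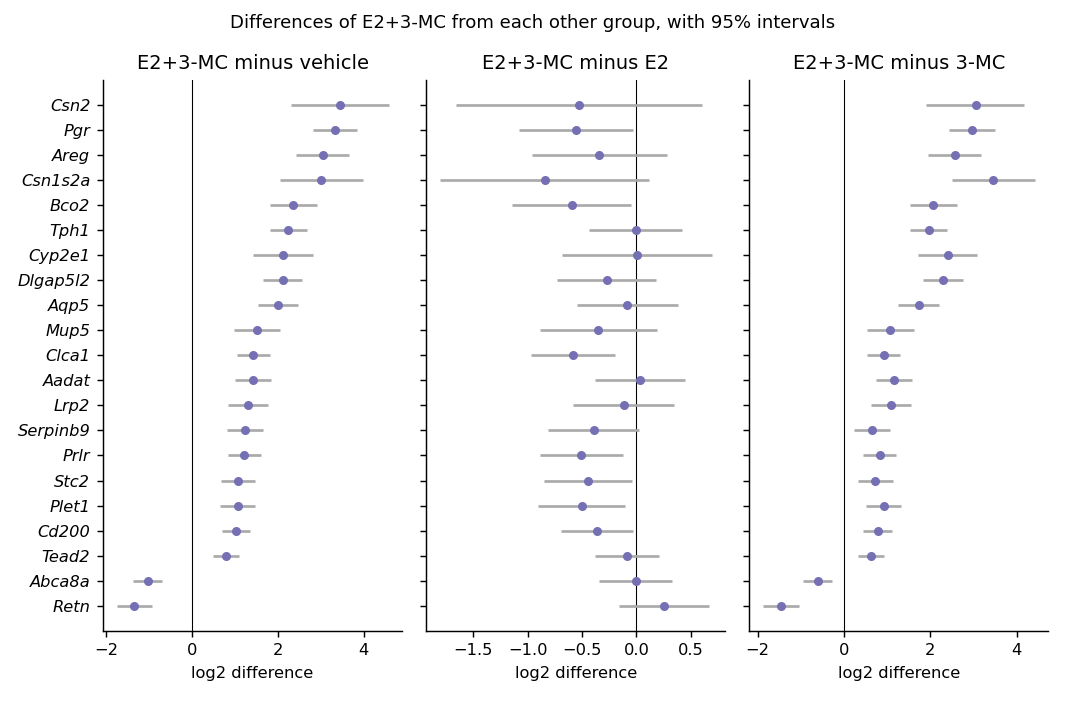
Differences of the E2 + 3-MC mean from the vehicle, E2 and 3-MC means (panels, log2 scale with its own range in each) for the 21 genes that passed against vehicle, with 95% intervals from the 4-group fit, 3 rats per group. Against E2 most points lie left of 0 and none passed, and against 3-MC the caseins, Pgr and Areg lie at 2.56 to 3.46.

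The result against E2 depended on which arrays set the spread. With only the E2 and E2 + 3-MC arrays fitted, 269 probe sets were higher (1.15% of those tested) and 90 lower (0.385%) in E2 + 3-MC than in E2. The median SD between rats was 0.142 within E2 and 0.159 within E2 + 3-MC, but 0.175 within vehicle and 0.202 within 3-MC. In the 2-group fit, 19 of 36 mitotic genes were lower with E2 + 3-MC than with E2 and 0 were higher, among them Top2a, Nusap1, Ccnb1, Ccnb2 and Kif11. Top2a was at 378, 463 and 378 with E2 and 127, 171 and 182 with E2 + 3-MC, without overlap. In the other direction, 10 of 21 interferon genes, 10 of 18 myeloid genes, 8 of 27 chemokines and cytokines and 6 of 21 lipid synthesis genes were higher than with E2. Of AHR targets Ahrr, Cyp1b1 and Hmox1 were higher. Of the 38 probe sets that passed against vehicle, 0 were higher and 2 lower than with E2 in this fit, both without a single gene symbol. Relative to vehicle, the medians of the interferon, myeloid and chemokine lists were -0.15, -0.42 and -0.34 with E2. They were 0.33, 0.50 and 0.40 with 3-MC, and 0.63, 0.45 and 0.50 with E2 + 3-MC.

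**Figure D5:**
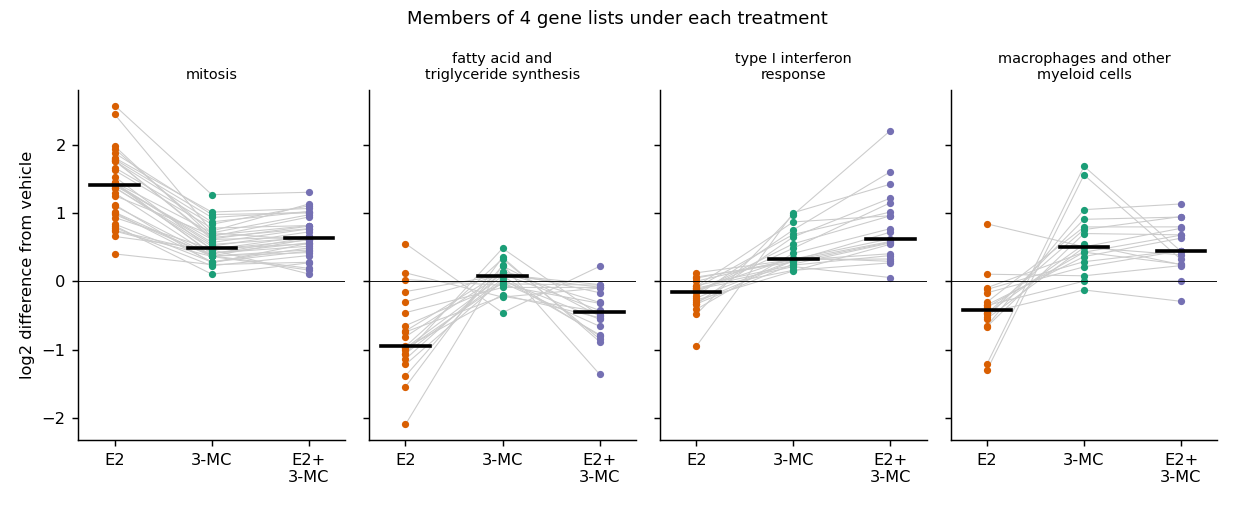
Log2 difference from the vehicle mean of each member (points, joined by grey lines) of 4 gene lists with E2, 3-MC and E2 + 3-MC, 3 rats per group, with list medians as black bars. All 3 treatments share the vehicle arrays. The median of the mitotic genes was 1.42 with E2, 0.50 with 3-MC and 0.64 with E2 + 3-MC. That of lipid synthesis genes was -0.95, 0.08 and -0.44.

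Against 3-MC alone, 24 probe sets were higher (0.103%) and 2 lower (0.00856%) with E2 + 3-MC. Pgr had the smallest adjusted p and was at 76.6, 27.5 and 67.8 with 3-MC (difference 2.96, 95% interval 2.44 to 3.49, adjusted p = 0.000276 by limma). Dlgap5l2, Tph1, Areg, Bco2, Aqp5, Csn1s2a, Cyp2e1 and Aadat were higher with differences of 1.16 to 3.46 and adjusted p of 0.000636 to 0.0356 (limma), and Retn was lower, at 1143, 1287 and 800 with 3-MC (adjusted p = 0.00396 by limma). Csn2 was close to the threshold (adjusted p = 0.0488 by limma), with 3-MC rats at 308, 39.2 and 135. Lefty1, a TGF-beta family inhibitor of Nodal, was the other probe set that was lower, at 164, 118 and 128 with 3-MC and 75.4, 54.6 and 46.1 with E2 + 3-MC, and did not pass against vehicle (log2 difference -0.33, adjusted p = 0.523 by limma). Clca1, Prlr, Plet1, Stc2, Cd200, Serpinb9, Tead2, Lrp2 and Mup5 had passed against vehicle and did not pass against 3-MC, with differences of 0.63 to 1.10. Abca8a, which had fallen against vehicle, did not pass against 3-MC either (difference -0.61, 95% interval -0.95 to -0.28, adjusted p = 0.397 by limma). The 36 mitotic genes had a median difference from 3-MC of 0.14. At an unadjusted p below 0.05 in limma, 0 of them were higher and 0 lower (657 and 519 of all tested probe sets). Of the 21 lipid synthesis genes, 1 was higher and 12 were lower at that level, with a median of -0.44.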

How the data were processed

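RNA of 12 rats, 3 per group, was hybridized to a rat gene array with 1 array per rat. The intensities analysed are linear values that the authors made before they were deposited, and the submitters' processing notes name Affymetrix Expression Console and PLIER without versions. The methods also name quantile normalization, transformation to the control median and removal of the lowest probe sets, but the deposited values were uncentred, held all probe sets and had unequal array medians. Groups came from the array titles.

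Log2(intensity + 16) was computed and tested in R 4.3.3 with limma 3.58.1, as 1 model of the 4 groups over the 23371 probe sets above the 20th percentile of the mean, with Benjamini-Hochberg adjustment over all of them, and the code was tested on simulated data. With 3 rats in each group, an exact two-sided permutation p is never smaller than 0.1, so no single-gene permutation p is given. Of the probe sets, 15316 carry 1 gene symbol, 317 several and 13581 none in the platform annotation, which can be old, and a gene with several probe sets is given by the brightest.

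Named genes were up to 15 genes in each direction, ranked by the size of their change, that passed with 1 symbol and without overlap, all listed AHR target, receptor and study genes, the list members with the largest passing change, the genes with the smallest adjusted p against each compound and single cell type markers. Foxa1, Igf1, Ccnd1, Myc, Tff1, Wap, Il18, Mx1, Isg15, Cxcl10, Ccl2, Nr1d1, Crabp1, milk genes that did not pass and muscle genes called without vehicle rat 3 were named after their values were seen. Members and lists were chosen with earlier results of these data known. Alternatives were other filters, pseudocounts, scalings, fits, the methods' t-test and leaving out each rat. Figures used Python 3.11.15 and matplotlib 3.10.9.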

Additional observations from a re-analysis of the deposited data

How the results depend on the processing

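Against vehicle (36 higher, 2 lower), the higher count stayed within 1.5 times of 36 under every alternative except the methods' t-test with Benjamini-Hochberg correction (0 higher, 0 lower) and some fits without 1 rat. The lower count was 4 with the filter at the 50th percentile, 9 with quantile normalization, 6 with centred arrays, 4 with a trended robust fit and 7 with the replicate number as a block. Leaving out each rat gave 21 to 50 higher and 0 to 33 lower, with 33 lower without vehicle rat 3, 7 without vehicle rat 2, 50 higher without E2 + 3-MC rat 2 and 21 without rat 3. Against E2 (0 and 0), quantile normalization gave 1 higher and 1 lower, the 2-group fit 269 and 90, and leaving out a rat 0 to 1 higher and 0 to 10 lower, with 10 without E2 rat 3. Against 3-MC (24 higher, 2 lower), the t-test gave 0 and 0. Without 1 rat, 18 to 41 were higher, with 41 without E2 + 3-MC rat 2, and 2 to 10 lower, with 10 without 3-MC rat 3 and 4 without 3-MC rat 2. The lower count was 6 with quantile normalization, 5 with centred arrays, 4 with 2 groups and 4 with the block. The interaction gave 0 to 1 lower without 1 rat, with 1 without vehicle rat 3. The cause of these differences was not tested. The replicate numbers share no stated pairing, and the deviations of same-numbered E2 + 3-MC and vehicle rats correlated at 0.237, -0.183 and 0.167, E2 + 3-MC rat 2 correlating best with vehicle rat 3. The block gave 40 higher and 7 lower, 36 of the 38 calls being shared. No call changed direction, whereas the median of the AHR target genes and that of all probe sets changed sign with scaling. These settings were tried for 88 single probe sets, namely the 38 that passed and the AHR target, receptor and study genes. They passed or failed as in the report in 1418 of the values tried, were weaker in 139 and stronger in 8. Only the 38 that passed could become weaker, and the 1418 include the values of genes that did not pass. The 1418 are therefore no measure of how stable the 38 calls were. Signal over background limits genes near the filter, such as Cyp1a1, Esr2, Dlgap5l2, Lrp2 and Mup5.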

Other observations

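The clock genes Nr1d1 and Dbp had E2 + 3-MC levels above all vehicle and all E2 rats. Nr1d1 was at 628, 560 and 452 with vehicle, 524, 439 and 396 with E2 and 1058, 853 and 997 with E2 + 3-MC, and did not pass against either (adjusted p = 0.0635 and 0.101 by limma). Dbp, a transcription factor of the clock output, was at 319, 248 and 205 with vehicle, 185, 163 and 162 with E2 and 355, 333 and 492 with E2 + 3-MC. Bmal1, which the NR1D1 protein represses, was at 165, 169 and 255 with vehicle and 142, 125 and 128 with E2 + 3-MC (log2 difference -0.50, adjusted p = 0.396 by limma). Of 15 clock genes 0 passed in limma, with 3 higher and 3 lower at an unadjusted p below 0.05 (6.99% and 2.73% of all tested probe sets). Their median log2 difference was 0.02 and lay between -0.07 and 0.08 when 1 rat was left out. The time of day at which glands were taken was not analysed here.

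Endothelial and matrix genes did not pass. Of 15 endothelial genes 0 passed in limma and 6 were lower at an unadjusted p below 0.05, with a median of -0.33 (-0.20 without E2 + 3-MC rat 2), and Pecam1, an adhesion protein of endothelium, was at 1220, 899 and 1246 with vehicle and 814, 674 and 947 with E2 + 3-MC. Of 19 fibroblast and matrix genes 0 passed and 6 were lower, with a median of -0.32 (-0.20 without E2 + 3-MC rat 1), and Col3a1, a fibrillar collagen gene, was at 2172, 2309 and 3039 against 1410, 1866 and 2120. Over all tested probe sets, 2.73% were lower at an unadjusted p below 0.05 in limma. In the methods' t-test with correction 0 genes of the clock, endothelial and matrix lists passed. The genes of this section were chosen after their values were seen.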
